A study of Mus musculus with 8 samples.

Results

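Counts of the interferon-inducible GTPase genes were examined in 8 RNA-seq libraries prepared from EO771, a mouse mammary cancer cell line. The 8 members, taken by gene symbol from a table of 49997 genes, were the guanylate-binding protein (GBP) genes Gbp2, Gbp3, Gbp5 and Gbp7 and the immunity-related GTPase (IRG) genes Irgm1, Irgm2, Igtp and Iigp1. In the first experiment, 2 libraries came from cells given vehicle (2% DMSO in saline) and 2 from cells given 100 nM 12-HETE, a lipid made from arachidonic acid by 12-lipoxygenase, for 48 h. In the second experiment, 2 libraries came from cells transduced with an empty vector (vector) and 2 from cells transduced with an ADAR1 p150 overexpression vector (ADAR1 p150 OE), which encodes the interferon-inducible isoform of an enzyme that edits adenosine to inosine in double-stranded RNA. All groups were the same cell line in culture, and the labels do not say whether replicates were separate cultures, although the study calls its editing comparisons of these treatments independent experiments. The p-values measure the spread between these libraries, which may be technical.

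GBP and IRG proteins are large and mid-sized GTPases that interferon switches on in most cell types. They assemble on the vacuoles and membranes that surround intracellular microbes, where GBP proteins help to rupture the membrane and to activate inflammasomes. Irgm1, Irgm2 and Igtp (also named Irgm3) form the regulatory branch of the IRG family, which sits on the cell's own membranes and holds the effector branch, to which Iigp1 (also named Irga6) belongs, in an inactive state. Type I interferon reaches these genes through a complex, with STAT2 and IRF9 among its subunits, that binds the interferon-stimulated response element (ISRE), and interferon gamma acts through the gamma-activated site (GAS).

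The promoters are shown because most members carry the same short interferon motif close to the start of the gene. RefSeq promoter windows of GRCm38.p6, from 250 bases before to 50 bases after the start, were examined for 7 of the 8 members. The chromosome that carries Iigp1 was left out before matching, so the promoter of Iigp1 was not examined. The totals of all windows and all genes given below also lack that chromosome. An ISRE-like motif, GAAANNGAAA on either strand (TTTCNNTTTC when read on the other strand), was found in 7 of the 8 windows of these 7 genes, against 3.44% of all 32851 windows of the same length; Gbp3 had a second window, at a later start, without a match. Counted by gene, 7 of 7 members and 3.99% of 27025 genes had a window with the motif. A GAS-like motif, TTCNNNGAA, which reads the same on both strands, was found in 4 of the 7 genes (Gbp5, Gbp7, Igtp and Irgm2) and in 4 of their 8 windows, against 9.55% of all genes and 8.3% of all windows. Below, capitals mark the ISRE-like match, which overlaps a second match in Gbp3, and all 4 stretches are on the plus strand.
Gbp3, chr3:142559979-142560034: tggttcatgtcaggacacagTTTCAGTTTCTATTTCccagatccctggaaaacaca
Gbp7, chr3:142530263-142530312: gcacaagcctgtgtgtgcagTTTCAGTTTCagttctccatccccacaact
Igtp, chr11:58199502-58199551: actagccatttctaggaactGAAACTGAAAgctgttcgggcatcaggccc
Irgm2, chr11:58214893-58214942: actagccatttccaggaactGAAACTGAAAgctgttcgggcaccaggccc

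The motif began 45 bases before the RefSeq start of Gbp3, 53 before Gbp7, 34 before Igtp and 64 before Irgm2. The RefSeq start of Irgm2 lies 15359 bases inside the gene as GENCODE draws it, and that of Gbp5 lies 2956 bases inside, so these windows belong to internal starts of the gene spans given below. The Igtp and Irgm2 windows were close to each other in sequence, with a longest shared run of 61 bases and 184 identical bases of 270 in the best alignment without gaps. Of the other members, the ISRE-like match began 165 bases before the RefSeq start of Gbp5, 59 before Gbp2 and 30 before Irgm1. A motif match describes the letters of the window and is not evidence of binding in these cells.

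**Figure D1:**
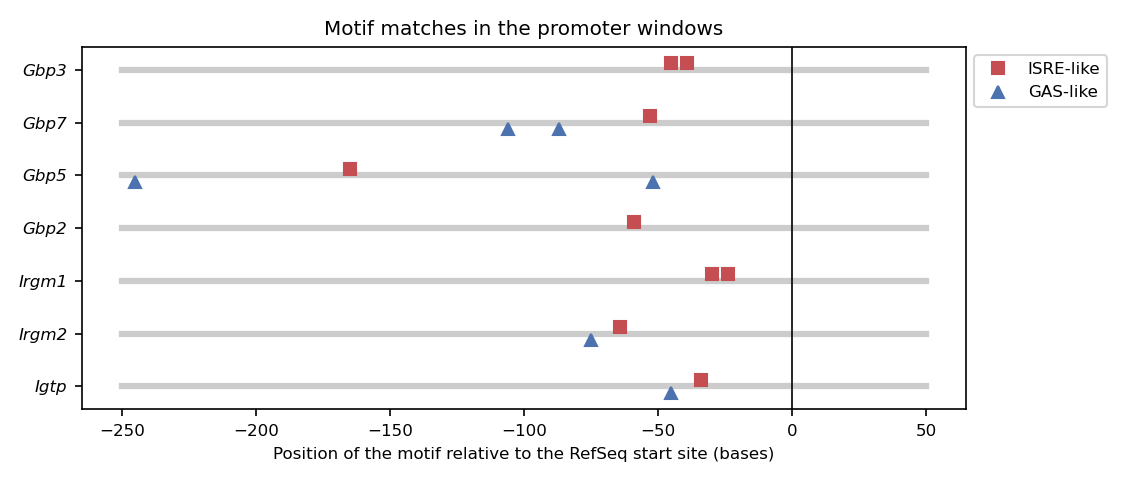
Positions of ISRE-like (squares) and GAS-like (triangles) motif matches in the promoter windows of 7 interferon-inducible GTPase genes; the horizontal axis gives bases relative to the RefSeq start and each grey bar is one window. ISRE-like matches lie within 64 bases of the start in every gene shown except Gbp5, where the match begins 165 bases before it.

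The libraries were shallow for genes of this kind. Total counts ranged from 1101767 to 1537037 per library, and AY036118, a single gene picked out after looking at its values, held 44.4% to 50.3% of them, so that 3 counts corresponded to 2.11 to 2.74 CPM, which is the count per TMM-scaled library size. Adar, the gene overexpressed in the second experiment, had 2 and 8 counts in vector cells and 181 and 140 in ADAR1 p150 OE cells, higher as labelled (log2 fold change 4.68, SE 0.32, adjusted p = 6.4e-14, edgeR quasi-likelihood test). Of 6 epithelial markers, the keratins Krt7, Krt8, Krt18 and Krt19 had 25 to 150 counts in each library. Epcam had 1 to 4 counts in each library, and Cdh1 was at 0 in all 8. Of 6 immune markers, Ptprc, Adgre1, Itgam, Cd3e and Lyz2 had 0 to 2 counts in each library, and the other, Cd68, had 10 to 26. The summed immune markers came to 14.9 to 18.8 CPM in vehicle cells, 8.56 to 9.96 after 12-HETE, 19.2 to 21.9 in vector cells and 13.6 to 19.7 in ADAR1 p150 OE cells. Of 7 stromal and endothelial markers, Col1a2 was at 0 in all libraries and Dcn had 8 to 57 counts; Cdh5 had 9 and 7 counts in vehicle cells, 0 and 0 after 12-HETE, 4 and 7 in vector cells and 1 and 2 in ADAR1 p150 OE cells. The summed stromal and endothelial markers came to 34.0 to 35.1, 29.9 to 32.8, 14.6 to 35.8 and 31.7 to 42.9 CPM in the same order of groups. The part of other cell types in the values below was not tested.

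Together the 8 members held 273 counts in all 8 libraries, and Gbp3 alone made up 57.1% of these. After scaling, the summed members reached 47.1 and 43.1 CPM in the vehicle libraries and 31.4 and 9.19 CPM in the 12-HETE libraries. They reached 31.0 and 36.7 CPM in vector cells and 16.2 and 8.32 CPM in ADAR1 p150 OE cells. Both treated libraries lay below both controls in each experiment, although the treated libraries had the higher total counts. Without Gbp3, the other 7 members summed to 22.3 and 22.4 CPM in vehicle cells and to 7.85 and 1.53 CPM after 12-HETE. The corresponding sums were 13.7 and 21.8 CPM in vector cells and 4.92 and 3.02 CPM in ADAR1 p150 OE cells. In bulk libraries such as these, fewer cells that express a gene and less RNA per cell cannot be told apart.

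**Figure D2:**
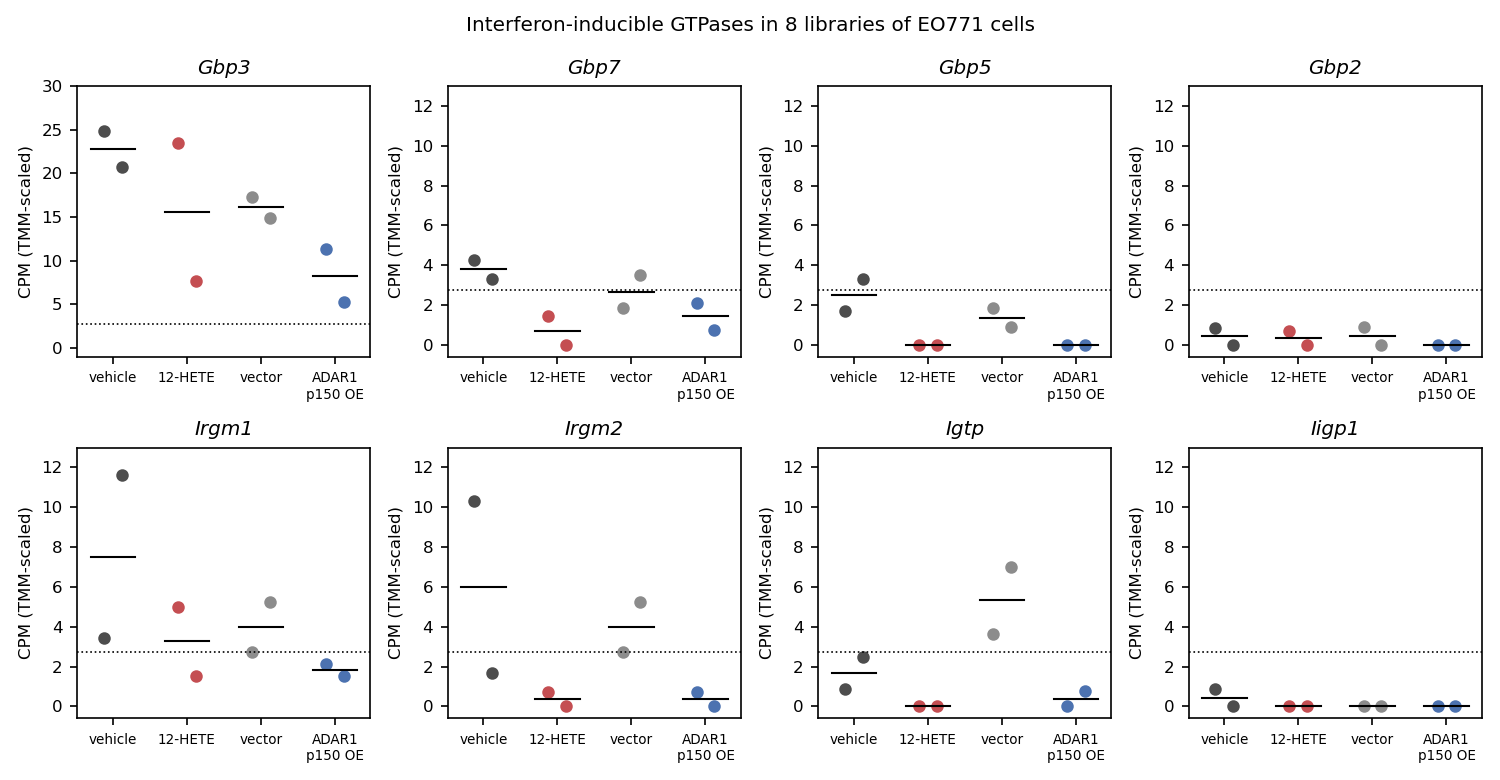
CPM of the 8 interferon-inducible GTPase genes in each of 8 libraries, by group; points are libraries, horizontal lines are group means, and the dotted line marks the highest value that 3 counts correspond to in any library (2.74 CPM). Gbp3 has its own axis range, reaching 24.8 CPM; Gbp5 lies at 0 in all 4 treated libraries, and Gbp2 and Iigp1 do not rise above 1 count in any library.

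A level per kilobase of exon allows genes to be set against each other. In the vehicle group, Gbp3 was the highest, at 6.98 ± 0.885 CPM per kb (SD, n = 2). Irgm2 followed at 1.62 ± 1.65 CPM per kb, Irgm1 at 1.29 ± 0.997, Igtp at 0.827 ± 0.571 and Gbp7 at 0.677 ± 0.121 (SD, n = 2 each). Those 4 genes did not differ beyond their spread. Gbp5 stood at 0.379 ± 0.171, Gbp2 at 0.17 ± 0.241 and Iigp1 at 0.0735 ± 0.104 CPM per kb (SD, n = 2 each). In the vector group Gbp3 was again the highest at 4.93 ± 0.539 CPM per kb, and Igtp came next at 2.63 ± 1.17 (SD, n = 2 each).

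Gbp3, at chromosome 3 from 142560026 to 142573209 on the plus strand (GRCm38), encodes a guanylate-binding protein and was the only member whose counts averaged 10 or more over the 8 libraries. Its neighbours among the members, Gbp5, Gbp7 and Gbp2, lie in the same cluster and strand, from 142493978 to 142638008. Gbp3 had 29 and 25 counts in vehicle cells and 33 and 10 after 12-HETE, which is 24.8, 20.7, 23.5 and 7.66 CPM. The first 12-HETE library, replicate 4, lay between the vehicle libraries, and the second, replicate 5, lay below both. The log2 fold change was -0.52 (SE 0.37, 95% interval -1.28 to 0.24, adjusted p = 0.314, edgeR quasi-likelihood test), so a difference from vehicle did not pass the test. The value rested on which 12-HETE library was used: it was -1.56 (adjusted p = 0.021) without replicate 4 and 0.05 (adjusted p = 0.95) without replicate 5.

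In vector cells, Gbp3 had 19 and 17 counts, and in ADAR1 p150 OE cells it had 16 and 7, which is 17.3, 14.9, 11.3 and 5.29 CPM. Both overexpressing libraries lay below both vector libraries. The log2 fold change was -0.93 (SE 0.45, 95% interval -1.85 to -0.02, unadjusted p = 0.0463, adjusted p = 0.13, edgeR). It did not pass the test over all genes. The effects of 12-HETE and ADAR1 p150 on Gbp3 differed by 0.41 on the log2 scale (12-HETE minus ADAR1 p150, SE 0.59, 95% interval -0.78 to 1.6, adjusted p = 0.712, edgeR), an interval that does not show the treatments to act alike. Between the control groups, Gbp3 was at 22.8 ± 2.89 CPM in vehicle cells and 16.1 ± 1.76 in vector cells (SD, n = 2 each), a log2 difference of -0.5 (vector minus vehicle, adjusted p = 0.631, edgeR).

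As the only member that entered the test with the count minimum, Gbp3 gave 0 calls of 1 (a call needs a change of 2-fold or more and an adjusted p under 0.05), where 8.25% of 6901 genes were called lower after 12-HETE and 4.69% under ADAR1 p150. For the difference of the effects and for vector against vehicle it also gave 0 calls of 1, where 8.33% and 0.0435% of genes were called in either direction. At an unadjusted p under 0.05, Gbp3 passed for ADAR1 p150 in edgeR and not in the other 3 comparisons, and DESeq2 called it in 0 of the 3 comparisons for which it gave an adjusted p.

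Gbp7 and Gbp5, further GBP genes of the same cluster, were found at low counts. Gbp7 had 5 and 4 counts in vehicle cells and 2 and 0 after 12-HETE. Pooled over the libraries of each group and scaled, vehicle was at 5.13 times the 12-HETE level (95% exact interval 1.06 to 48.8). All intervals of this kind cover counting error only and not the spread between libraries. Where a treated group was at 0, it was set to a floor of 3 counts and the control count was taken as exact. A fold against this floor is therefore not the lower limit of an interval. In vector cells, Gbp7 had 2 and 4 counts, and in ADAR1 p150 OE cells 3 and 1, a ratio of 1.84 (0.436 to 8.85) with overlapping libraries. The Gbp7 gene also contains a pseudogene, Gm43802, on the same strand.

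Gbp5, which promotes inflammasome assembly, had 2 and 4 counts in vehicle cells and 0 and 0 after 12-HETE. Against a floor of 3 counts over the group, Gbp5 was 2.28-fold lower after 12-HETE than in vehicle cells. It was not called in a fit of all genes with a count (adjusted p = 0.142, edgeR). In vector cells it had 2 and 1 counts, and in ADAR1 p150 OE cells 0 and 0. Both of these groups were at or under the floor, so no fold is given.

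Gbp2 had 1 and 0 counts in vehicle cells, 1 and 0 after 12-HETE, 1 and 0 in vector cells and 0 and 0 in ADAR1 p150 OE cells, and no change was detectable at this depth. More counts were assigned to Mir6381, a microRNA gene of 87 bases on the opposite strand inside Gbp2, which was chosen after its values were seen. Mir6381 had 11 and 15 counts in vehicle cells, 1 and 2 after 12-HETE, 12 and 19 in vector cells, and 0 and 1 in ADAR1 p150 OE cells. Vehicle was at 9.89 times the 12-HETE level (exact interval 3.03 to 51) and vector at 38 times the ADAR1 p150 OE level (6.33 to 1550). In a fit of all genes with a count, Mir6381 was lower in both comparisons (adjusted p = 7.45e-05 after 12-HETE and 2.5e-08 under ADAR1 p150, edgeR). Mir6381 overlaps the second exon of Gbp2 by 24 coding bases at chr3:142623860-142623883, and these are shown because a read there could belong to either gene; the mature microRNA, shown with its seed in capitals, lies in an intron of Gbp2.
Gbp2 exon shared with Mir6381, plus strand: acaagctagctgggaagaggacag
mmu-miR-6381, minus strand: cAGGAUGCuggugacaugagu

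Since no source says if counts were kept apart by strand, reads within the span of Mir6381 cannot be assigned to either gene. Of the 2516 exonic bases of Gbp2, only 24 are shared. Whether Gbp2 or Mir6381 moved was not tested. No other member had an exon that overlapped a gene on the opposite strand.

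Among the IRG genes, Irgm2 and Igtp overlap on the plus strand of chromosome 11, Irgm2 from 58199618 to 58222782 and Igtp from 58199556 to 58207591. Irgm2 had 12 and 2 counts in vehicle cells and 1 and 0 after 12-HETE. The vehicle libraries differed widely, but both lay above both 12-HETE libraries. Vehicle was at 16 times the 12-HETE level (exact interval 2.43 to 675). In vector cells Irgm2 had 3 and 6 counts, and in ADAR1 p150 OE cells 1 and 0, a ratio of 11 (1.53 to 483). The groups of the second experiment did not overlap either.

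Igtp had 1 and 3 counts in vehicle cells and 0 and 0 after 12-HETE, 1.52-fold lower against a floor of 3 counts over the group. It was not called after 12-HETE in the fit of all genes with a count (adjusted p = 0.178, edgeR). Igtp had 4 and 8 counts in vector cells and 0 and 1 in ADAR1 p150 OE cells. Vector was at 14.7 times the ADAR1 p150 OE level (exact interval 2.18 to 628). Igtp and Irgm2 share 162 exonic bases on the same strand, and the division of their counts is therefore uncertain.

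Irgm1, on the minus strand of chromosome 11 from 48861968 to 48871683, is the IRG gene best known for its part in autophagy and mitochondrial quality control. It had 4 and 14 counts in vehicle cells and 7 and 2 after 12-HETE, a ratio of 2.28 (exact interval 0.973 to 5.77) with overlapping libraries. In vector cells it had 3 and 6 counts, and in ADAR1 p150 OE cells 3 and 2. After scaling, both ADAR1 p150 OE libraries (2.11 and 1.51 CPM) lay below both vector libraries (2.74 and 5.24 CPM), with a ratio of 2.21 (0.664 to 8.38). The counting interval of each Irgm1 ratio includes 1.

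Iigp1, the only effector IRG among the members, had 1 count in a vehicle library and 0 in the other 7 libraries. Its level was below the floor of 3 counts in every group, so neither its presence nor a change could be shown at this depth.

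**Figure D3:**
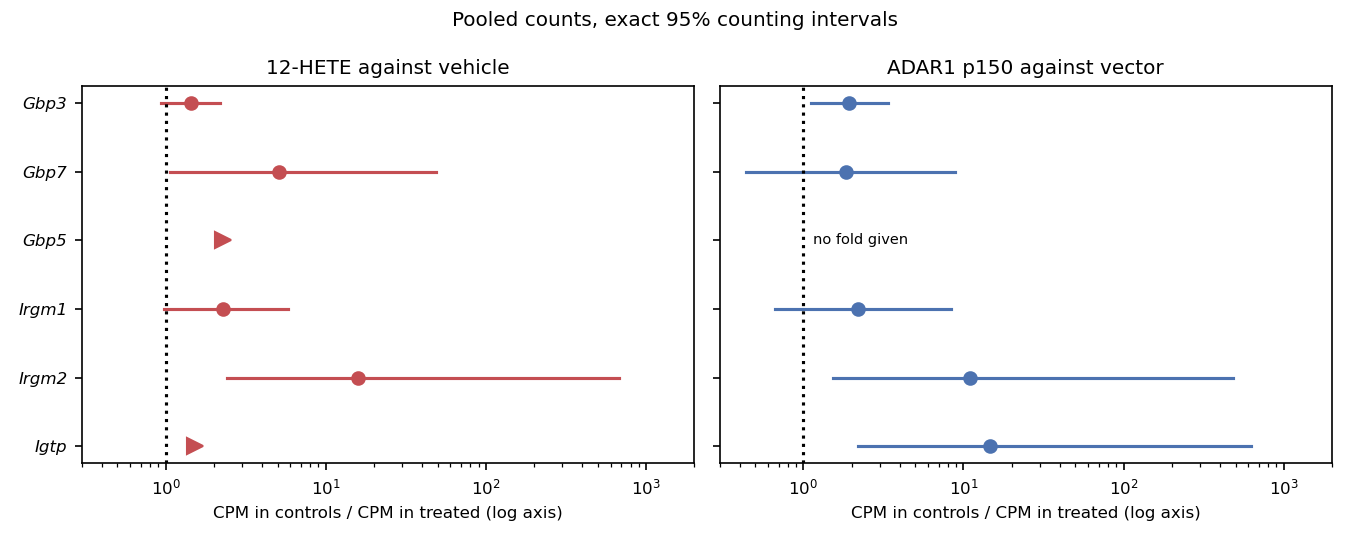
CPM in controls divided by CPM in treated libraries, from counts pooled over the libraries of each group, on a log axis. Points are ratios and bars are exact 95% counting intervals. Where the treated libraries were at 0, arrowheads mark the fold against the count floor, which is not the lower limit of an interval. For 12-HETE (left) the bars of Gbp7 and Irgm2 lie above 1 and those of Gbp3 and Irgm1 include it; for ADAR1 p150 (right) the bars of Gbp3, Irgm2 and Igtp lie above 1 and those of Gbp7 and Irgm1 include it. The Gbp3 ratio for 12-HETE rests on replicate 5 of that group.

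Counted over all members, both 12-HETE libraries lay below both vehicle libraries for 4 of 8 genes (Gbp5, Gbp7, Irgm2 and Igtp) and above for 0. The share of genes with this order was 21.1% of the 24375 genes with any count and 31.2% of the 6901 genes averaging 10 or more counts. Both ADAR1 p150 OE libraries lay below both vector libraries for 5 of 8 members (Gbp3, Gbp5, Irgm1, Irgm2 and Igtp) and above for 0, against 16.3% and 26.3% of the same genes. Gbp5, Irgm2 and Igtp were in the lower order in both experiments, as were 6.98% of the genes with any count and 13.6% of those averaging 10 or more.

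The 7 members under the minimum were also fitted with every gene that had a count, a setting in which a gene with few counts enters. Here Irgm2 was called lower after 12-HETE (adjusted p = 0.00377, edgeR), and Irgm2 and Igtp were called lower under ADAR1 p150 (adjusted p = 0.0429 and 0.0154, edgeR). That is 1 and 2 of 8 members, where 3.52% and 1.94% of 24375 genes were called lower. At an unadjusted p under 0.05 in edgeR, 5 of 8 members passed for 12-HETE and 3 for ADAR1 p150, where 16.8% and 15.3% of all genes did. With a replicate block in edgeR, 1 and 3 members passed, as did 3423 and 3132 of the 24375 genes. With DESeq2, 1 and 0 members passed at an unadjusted p under 0.05, as did 1866 and 1651 of the 24375 genes. DESeq2 gave no adjusted p for 7 of the 8 members in either comparison. The Irgm2 call for 12-HETE was lost without vehicle replicate 4 (adjusted p = 0.838), which held 12 of its counts, and without 12-HETE replicate 5 (adjusted p = 0.0993). The call of Irgm2 for ADAR1 p150 had adjusted p values of 0.0395 to 0.435 over the alternatives, and that of Igtp 0.00678 to 0.393; with a replicate block they were 0.135 and 0.137. Without vector replicate 2 both of these calls were lost (adjusted p = 0.435 and 0.393), as they were without ADAR1 p150 OE replicate 1 (0.0689 and 0.2), and that of Irgm2 was also lost without ADAR1 p150 OE replicate 2 (0.305), vector replicate 1 (0.0599) or vehicle replicate 4 (0.084).

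The other genes of the families were also sparse. Of 11 mouse GBP genes, 9 had a count in some library, Gbp3 alone was tested with the minimum, and 0 of the 9 were called in the fit of every gene with a count, where 5.4% of all genes were called in either direction after 12-HETE and 4.37% under ADAR1 p150. Of 16 IRG genes, 15 had a count and 0 had a mean count of 10. In the fit of all genes with a count, 2 were called lower after 12-HETE, Irgm2 and Tgtp1, and 2 under ADAR1 p150, Irgm2 and Igtp. Tgtp1, an effector IRG gene, had 6 and 6 counts in vehicle cells and 0 and 0 after 12-HETE. That is 4.56-fold lower against a floor of 3 counts (adjusted p = 0.00109, edgeR). It had 1 and 7 counts in vector cells and 3 and 1 in ADAR1 p150 OE cells, and those libraries overlapped. Tgtp1 shares exonic bases with Gm12185 on the same strand and has a close copy, Tgtp2, so its counts are uncertain. Ifi47, the IRG gene with the most counts outside the members, had 4 and 4 counts in vehicle cells and 5 and 4 after 12-HETE, a ratio of 1.01 (exact interval 0.34 to 2.96), and 5 and 2 in vector cells and 8 and 1 in ADAR1 p150 OE cells, a ratio of 0.953 (0.302 to 2.88). Irgc1 had 0 and 0 counts in vector cells and 2 and 6 in ADAR1 p150 OE cells, and Tgtp2 had 0 and 1 and then 2 and 3. Both lay higher in the overexpressing libraries and neither was called. In the first experiment, Irgc1 had 1 and 2 counts in vehicle cells and 1 and 1 after 12-HETE, and Tgtp2 had 2 and 3 and then 0 and 1. After scaling, both lay lower in the 12-HETE libraries, and neither was called. Ifi47 and Irgc1 each share exonic bases with a gene on the opposite strand, so their counts are uncertain too. Gm12188, opposite Ifi47, had 125 and 129 counts in vehicle cells and 91 and 94 after 12-HETE. It had 127 and 130 in vector cells and 186 and 208 in ADAR1 p150 OE cells. Gm36159, opposite Irgc1, had 15 and 10, 2 and 2, 12 and 15, and 3 and 11 in the same order of groups. Which gene of each pair the reads came from was not tested. Ifi47, Irgc1 and Tgtp2 were chosen after their values were seen. The median log2 fold change over the 15 IRG genes was -2.27 after 12-HETE and -1.2 under ADAR1 p150, values set largely by genes with few counts, where the median over all genes with a count was 0 in both.

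Of 5 Mx and very large GTPase genes, 4 had a count and 0 reached the minimum. Gm4070, a predicted gene of the very large GTPases, had 4 and 2 counts in vehicle cells and 0 and 0 after 12-HETE. That is 2.28-fold lower against the count floor, and it was not called in the fit with no minimum (adjusted p = 0.0674, edgeR). Gm4070 had 6 and 4 counts in vector cells and 0 and 0 in ADAR1 p150 OE cells, 4.08-fold lower against the same floor. Under ADAR1 p150 it was called lower in the fit with no minimum (adjusted p = 0.00642, edgeR). This call was lost with a replicate block (adjusted p = 0.0729, edgeR) and with the crossed block (adjusted p = 0.0568, edgeR). It was also lost without vector replicate 1 (log2 fold change -5.26) or either ADAR1 p150 OE replicate (-5.58 and -5.6). Of 10 constitutive large GTPases, such as atlastins, dynamins and mitofusins, which do not depend on interferon, 4 were tested and 0 were called in either comparison. Of all 6901 genes, 14.4% were called in either direction after 12-HETE and 12.8% under ADAR1 p150, so 0 of 4 does not set these genes apart. The median log2 fold change of the 4 constitutive genes was 0.33 after 12-HETE and 0.37 under ADAR1 p150.

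The signalling genes upstream of the members were better measured. Of 14 interferon receptor, kinase and transcription factor genes, 5 were tested. After 12-HETE 1 of the 5, Stat2, was called lower and 0 higher, where 8.25% of all 6901 genes were called lower. The same was found under ADAR1 p150, where 4.69% of all genes were called lower. The median log2 fold changes of the 5 tested genes were -0.33 and -0.16, and over all 6901 genes the medians were 0.00 and 0.07. Stat2, a subunit of the ISRE-binding complex, had 21 and 28 counts in vehicle cells and 6 and 3 after 12-HETE, and the groups did not overlap. It was 6.06-fold lower (log2 fold change -2.6, SE 0.48, adjusted p = 5.66e-05, edgeR). Stat2 had 9 and 18 counts in vector cells and 4 and 2 in ADAR1 p150 OE cells, and was 5.31-fold lower (log2 fold change -2.41, SE 0.58, adjusted p = 0.00195, edgeR), a call that was lost without vector replicate 2 (-1.86, adjusted p = 0.0823).

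Irf9, the DNA-binding subunit of the complex, was below the minimum, with 13 and 8 counts in vehicle cells, 0 and 1 after 12-HETE, 10 and 17 in vector cells, and 1 and 2 in ADAR1 p150 OE cells. In the fit with no minimum, Irf9 was lower in both comparisons (adjusted p = 3.61e-05 and 1.55e-05, edgeR), and with DESeq2 the first of these was at an adjusted p of 0.0545.

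The interferon gamma receptor gene Ifngr1 had 40 and 38 counts in vehicle cells and 56 and 30 after 12-HETE, and 19 and 38 in vector cells and 48 and 32 in ADAR1 p150 OE cells. Its log2 fold changes were -0.05 (95% interval -0.63 to 0.52) and 0.2 (-0.42 to 0.81), and neither passed the test. Jak2, a kinase of the interferon gamma receptor, was at -0.33 (-0.89 to 0.24) and -0.16 (-0.84 to 0.51), and did not pass either.

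Tyk2, a kinase of the type I interferon receptor, had 14 and 16 counts in vehicle cells and 8 and 9 after 12-HETE, and 17 and 16 in vector cells and 14 and 12 in ADAR1 p150 OE cells. After scaling, its treated libraries lay below the controls in both experiments, with log2 fold changes of -1.0 (95% interval -1.88 to -0.12, adjusted p = 0.08, edgeR) and -0.63 (-1.42 to 0.16, adjusted p = 0.249, edgeR), and neither passed the test.

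**Figure D4:**
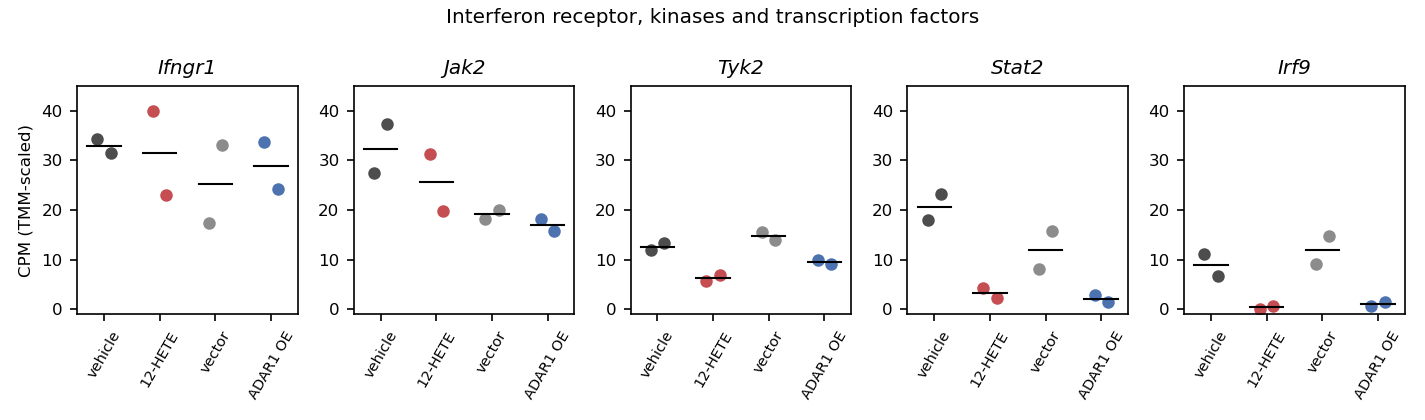
CPM of 5 genes that transmit the interferon signal, in each of 8 libraries by group; points are libraries and horizontal lines are group means. Stat2, Irf9 and Tyk2 lie below the controls in the treated libraries of both experiments, of which the Tyk2 differences did not pass the test, and Ifngr1 overlaps in both.

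Few of the genes that act with the GTPases could be tested: 3 reached the minimum, and 0 of these 3 were called, where 14.4% of all genes were called in either direction after 12-HETE and 12.8% under ADAR1 p150. Of 10 genes for ATG8 conjugation, the autophagy machinery that helps to target GBP and IRG proteins to vacuoles, 2 were tested and 0 were called. Atg7 had a log2 fold change of -0.21 after 12-HETE (adjusted p = 0.157) and -0.49 under ADAR1 p150 (SE 0.11, adjusted p = 0.00123, edgeR), the latter under the 2-fold threshold. Of 6 inflammasome genes, only Pycard was tested, and it was not called in either comparison. None of the 5 prenylation genes, which encode enzymes that add lipid anchors to proteins such as some GBPs, reached the minimum. With no minimum, 1 of these 5 was called higher after 12-HETE: Pggt1b, a subunit of the geranylgeranyl transferase, had 0 and 2 counts in vehicle cells and 6 and 9 after 12-HETE (adjusted p = 0.0399, edgeR), and the call was lost without 12-HETE replicate 5 (0.311), without vehicle replicate 4 (0.402), with libraries thinned to the smallest total (0.171) and with a replicate block (0.0568).

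Among 4380 non-member genes averaging 20 or more counts, the profile most like that of Gbp3, the only tested member, over the 8 libraries was that of Lifr, a cytokine receptor gene, with a Pearson correlation of log2 CPM of 0.955. Jag1 (0.902), Rpl12 (0.898) and Qk (0.897) were also among the 5 most alike. These are descriptions over 8 libraries that share their groups and depth. Lifr had 57 and 62 counts in vehicle cells, 62 and 41 after 12-HETE, 48 and 44 in vector cells, and 51 and 29 in ADAR1 p150 OE cells, so that, as for Gbp3, the second library of each treated group was the lower.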

How the data were processed

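RNA was measured in 8 libraries of EO771 cells in 4 groups of 2. Per the paper's methods, the authors aligned reads to GRCm38 (STAR) and assigned fragments to genes (featureCounts); they removed duplicates (prinseq) for the editing analysis, and whether this was done for the counts is not stated; the strand setting is not given in the sources used here. The deposited values are raw counts, and the total count was 1101767 to 1537037 per library. Floors of 3 counts cover counting error only. The methods name Trizol and a directional kit, and the labels a column kit and another library kit.

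The 6901 genes averaging 10 or more counts were fitted in R 4.3.3 with limma 3.58.1 and edgeR 4.0.16 in a single model of all 8 libraries, with TMM factors, a quasi-likelihood test and Benjamini-Hochberg adjustment over all genes tested. A call needed a change of 2-fold or more and an adjusted p under 0.05. The SE is the log2 fold change divided by the square root of F. DESeq2 1.42.0 was an alternative. Pooled ratios used exact binomial intervals. The procedure was tested on simulated data.

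The members and gene lists were chosen with earlier results of these data known. All 8 members are named. From the lists, called genes are named, at most 4 per list. Some list genes that were not called are named as well, outside this rule. Of the 5 genes most like Gbp3 by correlation of log2 CPM (prior count 2), 4 are named; a few genes, in the lists too, are not reported here, and list counts leave them out. Positions and exon lengths are from GENCODE M21 (GRCm38).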

Additional observations from a re-analysis of the deposited data

How the results depend on the processing

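With the count minimum, the number of members called stayed at 0 under every alternative run for ADAR1 p150, and for 12-HETE with 1 exception. Leaving out each library in turn gave 0 to 1 members lower after 12-HETE and 0 under ADAR1 p150, and the call of 1 came without 12-HETE replicate 4. With no minimum, 1 member was lower after 12-HETE and 2 under ADAR1 p150. With at least 10 counts in every library, no member was left to test, so no value could be given. The log2 fold change of Gbp3 after 12-HETE ranged from -1.56 without 12-HETE replicate 4 to 0.05 without replicate 5. Its difference of effects ranged from -0.62 without 12-HETE replicate 4 to 1.06, and was -0.01 without ADAR1 p150 OE replicate 2; the cause was not tested. Gbp3 under ADAR1 p150 stayed between -1.59 and -0.51, with adjusted p values of 0.0638 to 0.53.

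The labels number the replicates, but deviations of same-numbered libraries correlated at -0.0798 in the first experiment and -0.114 in the second, so the numbers were not taken to pair them. With a replicate block, 0 members were called with the minimum; with no minimum, 1 was called after 12-HETE and 0 under ADAR1 p150, against 1 and 2 without it. The crossed block, chosen after seeing the data, gave 0 calls with the minimum for both treatments.

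For the 7 members under the minimum, alternatives were run on the fit with no minimum, a base chosen after seeing the data, for both treatments only. Leaving out each library in turn gave 0 to 2 members lower for either treatment. After 12-HETE the count was 0 without vehicle replicate 4 or 12-HETE replicate 5 and 2 without 12-HETE replicate 4, against 1 as reported. Under ADAR1 p150 the count of 2 fell to 0 with either block, without vector replicate 2 or without ADAR1 p150 OE replicate 1. It fell to 1 with libraries thinned to the smallest total, with only the 4 libraries of the contrast, and without vehicle replicate 4, vector replicate 1 or ADAR1 p150 OE replicate 2. The cause of these losses was not tested. Where a library was left out and its group had 1 left, that library was assumed to vary like the other groups. Depth limits these results: 3 counts correspond to 2.11 to 2.74 CPM, and only Gbp3 exceeded 14 counts in any library.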
